A study of Mus musculus with 4 samples.

Results

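The naive pluripotency factors are the transcription factors that hold mouse embryonic stem cells (mESC) in the state of the early epiblast. The genes described are Nanog, Pou5f1, Sox2, Klf2, Klf4, Klf5, Esrrb, Tfcp2l1, Tbx3 and Zfp42, and a Zeb1 peak belongs to a gene when the deposited peak list names that gene for it. Of these 10 genes, 9 had at least 1 assigned peak, against 53.3% of the 21000 protein-coding genes of the reference annotation. Together they held 18 of the 17435 peaks in the list.

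The study mapped the transcription factor Zeb1 on chromatin in mESC. Its stated question was whether Zeb1 takes part in the response to nitric oxide and in the control of mesendodermal genes. Cells of the D3 line, at passages 5 to 8, were grown without feeder cells in ground state medium (GS), which is N2B27 with 1 μM PD0325901, 3 μM CHIR99021 and 20 ng/mL LIF. PD0325901 inhibits MEK and CHIR99021 inhibits GSK-3. Chromatin fixed with 1% formaldehyde and sheared to fragments near 200 bp gave 3 ChIP libraries with 8 μg of a Zeb1 antibody and 1 input library with no antibody. Each peak carries the authors' mean of treatment reads, their mean of input reads and their mean enrichment over input, with no value per library. For each peak, the smallest number was sought that makes both mean reads whole when multiplied by it, to the 6 digits deposited. It was 7 in 8 of the 18 peaks, 5 in 4 and 2 in 5. Over all peaks it was 7 in 34.7%, 5 in 19.1% and 2 in 26.3%. Of the input means, 16 of the 18 are not whole, as are 11248 of all 17435, although there is 1 input library. By the study's methods, reads of each library were normalized to the same depth and the values then averaged over libraries. The sources used here do not explain the numbers 5 and 7. The spread between the ChIP libraries is unknown. Before mapping, the authors drew an equal number of reads from every library, and the mapped reads of each were not analysed here. No value below has an SD, and no difference was tested.

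In the early embryo these factors bind one another's genes and keep each other active, with Oct4, Sox2 and Nanog at the core and Klf factors, Esrrb, Tfcp2l1 and Tbx3 around them. LIF, MEK inhibition and GSK-3 inhibition each feed into this circuit, and its dismantling opens the way to differentiation. Zeb1 is a zinc finger protein best known as a repressor of epithelial genes, and it recognises E-boxes. Expression of the factors was not analysed here.

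A peak centred within 5 kb of the transcription start site (TSS) was found at 7 of the 10, against 45.1% of protein-coding genes. These were Sox2, Klf2, Klf4, Klf5, Esrrb, Tfcp2l1 and Tbx3, and in each the centre was also within 1 kb. Nanog, Pou5f1 and Zfp42 had none within 5 kb. The upstream sequence of 7 of the genes, taken from the RefSeq promoters of GRCm38, is shown because CpG content is compared with the presence of such a peak. Each run holds the 250 bases before the TSS, 5′ to 3′, with every CpG in capitals, and the 3 genes without a promoter peak come first.
Nanog, chr6:122707239-122707488, plus strand: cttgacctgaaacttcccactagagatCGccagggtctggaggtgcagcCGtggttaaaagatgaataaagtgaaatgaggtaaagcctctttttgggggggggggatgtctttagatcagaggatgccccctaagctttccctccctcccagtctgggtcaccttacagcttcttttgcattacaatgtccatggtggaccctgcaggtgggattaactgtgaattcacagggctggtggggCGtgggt
Pou5f1, chr17:35505782-35506031, plus strand: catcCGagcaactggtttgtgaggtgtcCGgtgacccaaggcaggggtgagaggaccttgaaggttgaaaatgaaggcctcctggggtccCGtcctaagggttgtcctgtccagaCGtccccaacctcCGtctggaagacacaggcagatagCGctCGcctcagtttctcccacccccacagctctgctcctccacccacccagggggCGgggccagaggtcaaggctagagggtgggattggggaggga
Zfp42, chr8:43307010-43307259, minus strand: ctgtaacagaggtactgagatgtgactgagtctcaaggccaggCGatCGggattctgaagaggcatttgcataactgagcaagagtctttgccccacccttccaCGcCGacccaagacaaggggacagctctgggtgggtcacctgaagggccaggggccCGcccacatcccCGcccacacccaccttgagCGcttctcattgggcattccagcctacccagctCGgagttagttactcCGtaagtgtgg
Sox2, chr3:34649745-34649994, plus strand: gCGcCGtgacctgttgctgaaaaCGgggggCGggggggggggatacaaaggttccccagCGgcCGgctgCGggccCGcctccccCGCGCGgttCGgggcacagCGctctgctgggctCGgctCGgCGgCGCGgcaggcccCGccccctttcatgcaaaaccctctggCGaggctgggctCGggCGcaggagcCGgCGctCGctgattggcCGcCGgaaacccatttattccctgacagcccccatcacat
Klf2, chr8:72318812-72319061, plus strand: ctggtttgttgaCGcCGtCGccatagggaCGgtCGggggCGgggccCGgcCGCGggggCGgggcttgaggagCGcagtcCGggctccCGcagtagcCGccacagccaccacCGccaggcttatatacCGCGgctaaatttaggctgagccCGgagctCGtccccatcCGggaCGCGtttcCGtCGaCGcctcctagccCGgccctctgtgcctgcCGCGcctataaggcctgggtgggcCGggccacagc
Klf4, chr4:55532476-55532725, minus strand: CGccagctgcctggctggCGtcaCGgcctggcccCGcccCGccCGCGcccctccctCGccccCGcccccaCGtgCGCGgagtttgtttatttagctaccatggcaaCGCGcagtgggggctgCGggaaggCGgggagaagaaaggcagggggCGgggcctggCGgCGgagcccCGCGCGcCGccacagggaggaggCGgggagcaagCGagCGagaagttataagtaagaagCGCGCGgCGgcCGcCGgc
Esrrb, chr12:86421394-86421643, plus strand: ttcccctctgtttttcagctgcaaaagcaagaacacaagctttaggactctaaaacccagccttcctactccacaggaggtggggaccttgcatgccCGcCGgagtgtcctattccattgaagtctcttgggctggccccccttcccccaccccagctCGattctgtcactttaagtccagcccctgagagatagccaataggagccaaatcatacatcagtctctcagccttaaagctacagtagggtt
The Nanog sequence holds 3 CpG, that of Pou5f1 8 and that of Zfp42 9. The RefSeq promoter table holds a second promoter for Nanog, Pou5f1 and Esrrb, not shown, with 2, 6 and 6 CpG. The Sox2 sequence holds 27, that of Klf2 29 and that of Klf4 32. The median of the 32851 promoters in the reference table was 6. The Sox2, Klf2 and Klf4 promoters thus stood among the CpG-rich promoters, with fewer CpG in 91.4%, 93.2% and 95.4% of promoters. The matching shares were 29.0% for Nanog, 57.0% for Pou5f1 and 59.7% for Zfp42. The Esrrb sequence, with 3 CpG, has as few as that of Nanog although a peak lies at this TSS, and that of Tfcp2l1, not shown, has 16. In the 250 bases, CpG counts and promoter peaks therefore did not divide the genes alike. Of the 10 genes, 8 were matched to that table by symbol, all but Klf5 and Tbx3.

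**Figure D1:**
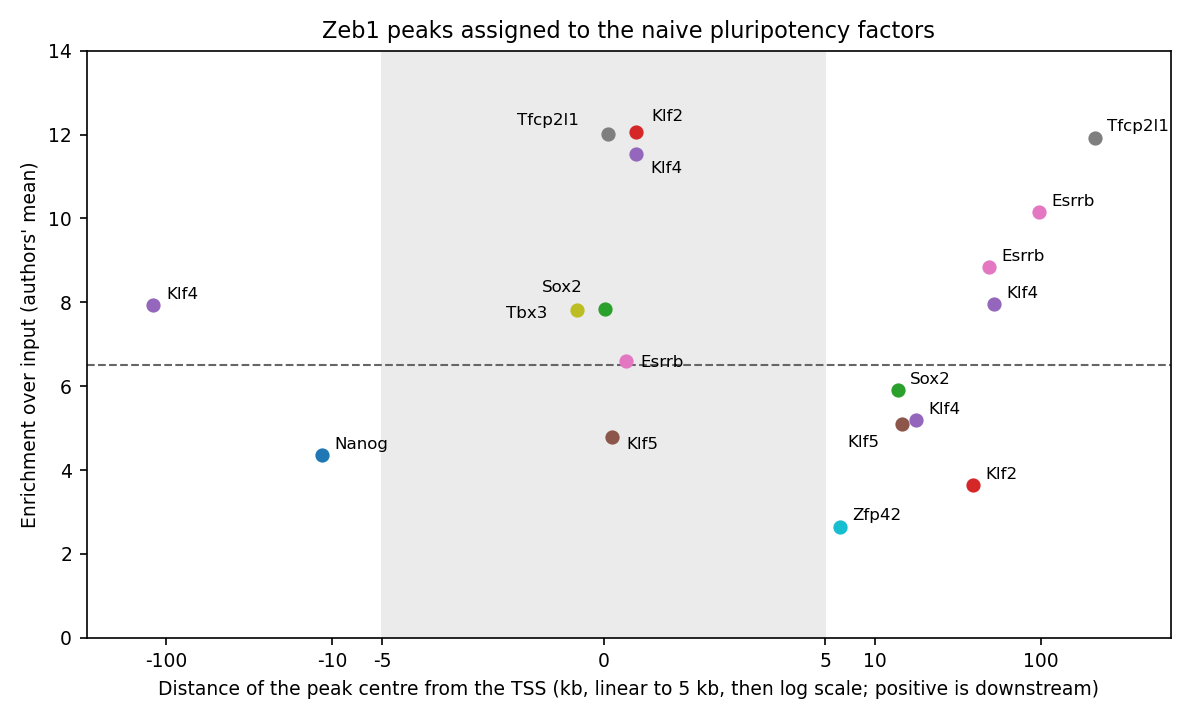
Enrichment over input (authors' mean) of each of the 18 peaks, as points coloured and labelled by gene, against the distance of its centre from the TSS in kb, with positive distances downstream. The grey band marks 5 kb on either side and the dashed line the median of all peaks, 6.5. Peaks of 7 genes lie in the band, and the peaks of Klf2, Tfcp2l1 and Klf4 there lie highest.

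Among the core factors, Sox2 had a promoter peak and the others did not. Sox2 encodes an HMG-box protein that binds DNA together with Oct4. Its peak, chr3:34648251-34651800 in mm10, had 148 reads in the ChIP (treatment reads) and 37.7 in the input, and its enrichment was 7.84. By the deposited distance its centre lay 20 bp downstream of the TSS, in the 5′ UTR of the gene's exon 1 of 1, which itself lies in intron 3 of 4 of the noncoding gene Sox2ot. The peak was 3550 bp long and covered 73.2% of Sox2. Treatment reads were lower in 98.4% of the list and enrichment in 67.7%, so that the peak ranked higher by reads than by enrichment. The next peak assigned to Sox2, chr3:34662401-34664950, was centred 13670 bp downstream of the TSS in intron 4 of 4 of Sox2ot and, by the deposited annotation, at the transcript end of ENSMUSG00000105284, with 54.8 treatment against 18.6 input reads and an enrichment of 5.9. A peak 7620 bp upstream was assigned to the microRNA gene Mir1897 and had an enrichment of 7.55.

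Nanog, a homeodomain factor that stabilises the naive state, had 1 assigned peak. It ran over chr6:122695351-122696700, upstream of the gene, with its centre 11464 bp from the TSS. The deposited annotation also places it at the promoter of another gene, ENSMUSG00000072789. On 34.5 treatment and 15.5 input reads its enrichment was 4.35, and 16.7% of the list ranked below it. No peak overlapped the Nanog gene. Downstream of Nanog, within 100 kb of its TSS, the list gave 2 peaks to Slc2a3, a glucose transporter gene, and 1 to Foxj2, a forkhead gene. The peak nearer to Nanog, 22660 bp from its TSS, had fewer reads in the ChIP, 22, than in the input, 22.5, at a deposited enrichment of 2.4. The other Slc2a3 peak had an enrichment of 4.81 and the Foxj2 peak 6.48.

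Pou5f1 encodes Oct4, the POU factor without which the pluripotent epiblast does not form, and it had no assigned peak. No peak overlapped the gene, and 6 peaks centred within 100 kb of its TSSs were assigned to neighbours. The nearest, chr17:35515351-35517700, was centred 7718 bp downstream of the nearest curated Pou5f1 TSS and belonged to Tcf19. Its enrichment was 4.7, on 47 treatment and 21.7 input reads. Farther downstream, the Psors1c2 peak had an enrichment of 5.38 and the Cdsn peak 6.65. Upstream lie class I histocompatibility genes, where the H2-Q10 peak had an enrichment of 7.37 and the H2-Q9 peaks 6.94 and 13.7. The highest of these values rested on 28 treatment and 4 input reads, 60157 bp from the Pou5f1 TSS.

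Klf2, Klf4 and Klf5 are zinc finger factors with overlapping roles in self-renewal, and each had a peak over its promoter. The Klf2 peak, chr8:72318101-72321500, reached an enrichment of 12.1 on 196 treatment and 32.7 input reads. Its centre fell 738 bp past the TSS, within coding sequence of exon 2 of 3, and the peak covered 94.1% of the gene. Treatment reads were lower in 99.5% of the list, which placed it first among the 18. The Klf4 peak, chr4:55529451-55534050, was alike, with 184 treatment against 32.7 input reads and an enrichment of 11.5. Its centre fell within coding sequence of exon 2 of 5, 725 bp past the TSS, and it covered 56.7% of the gene. At Klf5, the peak chr14:99297801-99299950 had its centre 184 bp past the TSS, in the 5′ UTR of exon 1 of 4. With 64.1 treatment against 27.6 input reads, its enrichment of 4.8 was the lowest of the 7 promoter peaks.

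Klf4 had 4 assigned peaks, more than any other of the 10 genes. Beside the promoter peak, there were peaks centred 17600 and 52000 bp downstream of the TSS and 119000 bp upstream, in intergenic sequence. Their enrichments were 5.19, 7.95 and 7.94, on 44.3, 46 and 40.4 treatment reads. The distal Klf4 peaks thus had fewer reads than the promoter peak and a lower enrichment. In its detailed form, the deposited annotation of each of them was CpG. It was the same for the Sox2 peak 13670 bp downstream and for the Esrrb promoter peak. At Klf5 a second peak, with an enrichment of 5.1 on 35 treatment and 13.5 input reads, sat over coding sequence of exon 4 of 4. The other Klf2 peak, chr8:72356151-72359250, was centred 38638 bp downstream in an intron of Eps15l1, a gene of endocytosis, and on a SINE repeat by the deposited annotation. There 45 treatment reads stood against 32 input reads, and the enrichment was 3.64. Its input reads were close to those of the promoter peak, which was of like length, 3400 bp against 3100 bp. Upstream of Klf2, within 100 kb, 1 peak of Fam32a and 2 of Ap1m1 had enrichments of 4.7, 6.16 and 3.53.

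**Figure D2:**
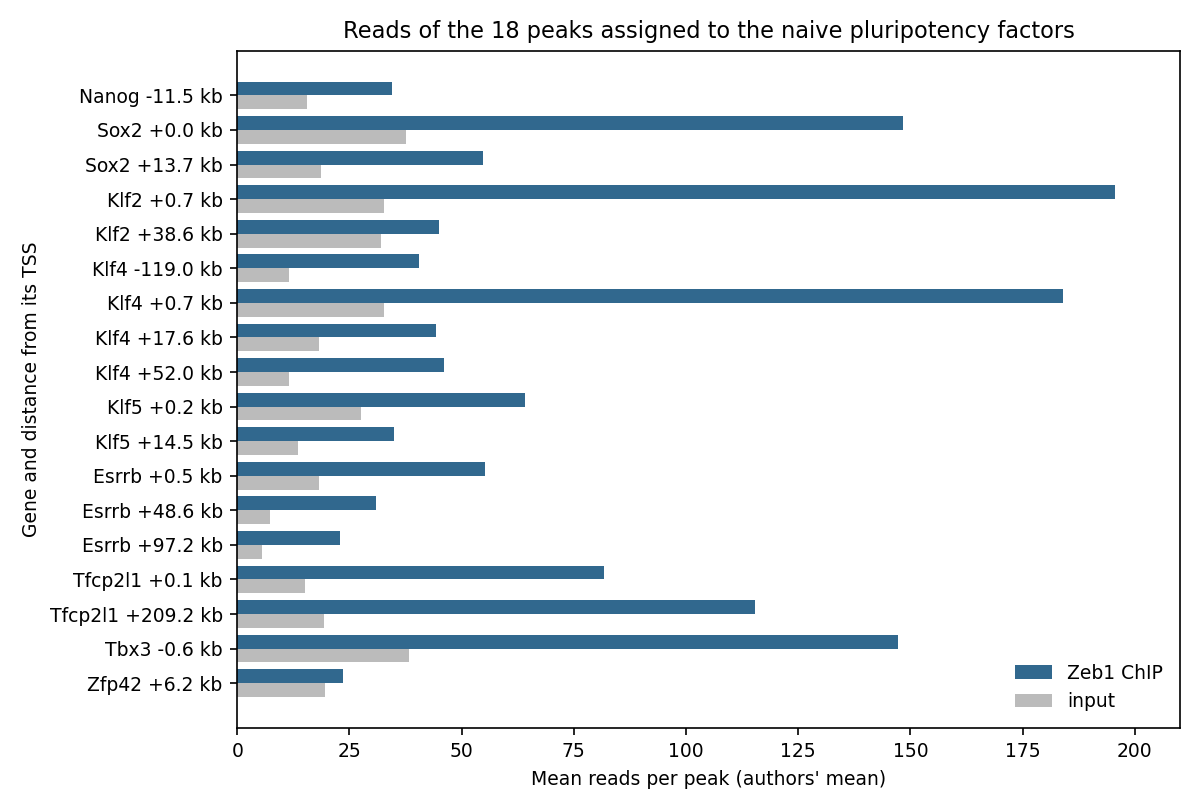
Mean reads per peak (authors' means) in the Zeb1 ChIP, dark bars, and in the input, grey bars, for the 18 peaks, each named by its gene and the distance of its centre from the TSS in kb. The promoter peaks of Klf2, Klf4, Sox2 and Tbx3 reach 147 reads or more, and the Zfp42 peak has nearly as many input reads as treatment reads.

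Esrrb, an orphan nuclear receptor that acts downstream of GSK-3 inhibition, had 3 assigned peaks, and their deposited enrichment was higher with distance from the TSS. The promoter peak, chr12:86420951-86423350, was centred 506 bp past the TSS in intron 1 of 6, and had 55.1 treatment against 18.3 input reads and an enrichment of 6.6. The peak 48606 bp downstream, over coding sequence of exon 2 of 7, had an enrichment of 8.84 on 31 treatment and 7.4 input reads. The peak 97206 bp downstream, over coding sequence of exon 7 of 7, had an enrichment of 10.2 on 23 treatment and 5.5 input reads. Treatment reads went down in the same order, from 55.1 to 23, and input reads from 18.3 to 5.5. The peak with the highest deposited enrichment of the 3 therefore had the fewest treatment reads of the 18, and 1.97% of the list had fewer. The quotient of the mean reads was 3.02 at the promoter, 4.19 in exon 2 and 4.18 in exon 7, so by this measure the exon 7 peak was not above the exon 2 peak.

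Tfcp2l1, a CP2 family factor induced by LIF through Stat3, had a promoter peak at chr1:118627151-118628950. The centre fell 105 bp past the TSS, within coding sequence of exon 1 of 15, and the enrichment was 12.0 on 81.8 treatment and 15 input reads. The other peak assigned to it, chr1:118835601-118838750, lay 209230 bp away, over coding sequence of exon 14 of 14 of Gli2, a Hedgehog effector. Its enrichment was 11.9 on 115 treatment and 19.3 input reads. Of the 18 peaks, this one and the Klf2 peak in Eps15l1 were the 2 centred within another protein-coding gene. Tbx3, a T-box factor that sustains self-renewal downstream of LIF, had 1 assigned peak, chr5:119667651-119672850. At 5200 bp it was the longest of the 18, and its enrichment was 7.82 on 147 treatment and 38.2 input reads. Its centre lay 612 bp upstream of the TSS, in intron 1 of 3 of the antisense gene Tbx3os1. The list gave 2 further peaks, 10467 and 15192 bp downstream of the nearest Tbx3 TSS, to Tbx3os2, with enrichments of 6.35 and 5.75. The first of these lay within the Tbx3 gene, which 2 peaks of the list overlapped. A peak 44037 bp upstream went to Gm16063 and had an enrichment of 5.05.

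Zfp42 encodes Rex1, a zinc finger protein used as a marker of the naive state. Its 1 assigned peak, chr8:43300051-43301650, was centred 6159 bp past the TSS in intron 2 of 3, on an L1Md_F2 element of the LINE-1 class by the deposited annotation. With 23.5 treatment against 19.5 input reads its enrichment was 2.65, and 2.67% of the list ranked below it. The peak was the weakest of the 18 by enrichment, and no other peak lay within 100 kb of the Zfp42 TSS. The deposited enrichment, which is scaled for mapped reads, is larger than the quotient of the mean reads. The factor had a median of 2.07 over all peaks and ran from 1.95 to 2.59 over the 18, and its source was not tested. At Zfp42 the quotient was 1.21.

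Set side by side, the 7 promoter peaks had a median enrichment of 7.84, and that of the best promoter peak, over all protein-coding genes that have one, was 6.84. The 11 peaks farther out had a median of 5.9, against 6 for all peaks beyond 5 kb. Treatment reads separated the promoter peaks more, with a median of 147 against 52.6 for all peaks within 5 kb. The 7 were also longer, at a median length of 3400 bp where all peaks near a TSS had 1950 bp, and reads rose with length across the list (Spearman's rho 0.668, a description over the 17435 peaks). Per kb, they had a median of 40 treatment reads against 26.8 in all peaks within 5 kb, and a median of 8.33 input reads in both. The difference in treatment reads was thus smaller per kb, and the part of length in it was not tested. The peaks farther out had 23.8 treatment reads per kb, against 22.4 in all such peaks. Of the 18 peaks, 7 lay within 5 kb, or 38.9%, against 61.4% of all peaks.

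An enrichment of at least 10 was reached by 4 of the 10 genes, against 9.95% of protein-coding genes. These were Klf2, Klf4, Esrrb and Tfcp2l1, with 5 of the 18 peaks, where 14.7% of all peaks reached it. At Esrrb it was reached in exon 7 and not at the promoter. Of the 10 genes, 6 had 2 or more assigned peaks. This was the case for 14.1% of protein-coding genes and for 26.5% of those with an assigned peak. Within 100 kb of their TSSs the 10 genes had a median of 3 peaks, and protein-coding genes a median of 2 with quartiles of 1 and 5. The 32 peaks in these windows ranged from 1 each around Tfcp2l1 and Zfp42 to 6 around Pou5f1, which had none assigned. Of the 32, the list gave 16 to other genes.

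Over a wider window, the genes with and without a promoter peak stood apart in CpG content. The ratio of observed to expected CpG was taken in the 1000 bp at each curated TSS, and the curated TSS with the highest ratio was used for each gene. It was 0.325 at Nanog, 0.333 at Pou5f1 and 0.486 at Zfp42. It was 0.586 at Tfcp2l1, 0.661 at Esrrb, 0.734 at Klf2 and 0.826 at Sox2. At Tbx3, Klf5 and Klf4 it was 0.915, 0.925 and 0.959. The 3 genes without a promoter peak thus had the lowest ratios of the 10, and the groups did not overlap. The ratio was chosen after the values were seen, so this split is a description only. Over all protein-coding genes the share with a peak within 5 kb was 4.71% at a ratio below 0.25, 19.2% from 0.25 to 0.5, 62.2% from 0.5 to 0.75 and 74.4% at 0.75 and above. Of the 10 factors, such a peak was present in 0 of 3 in the class from 0.25 to 0.5, 3 of 3 in the next and 4 of 4 in the highest, and none fell in the lowest class. The part of CpG content in the presence of a peak was not tested. Among genes with a promoter peak, the median of the best enrichment lay between 6.51 and 6.9 in the 4 classes.

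**Figure D3:**
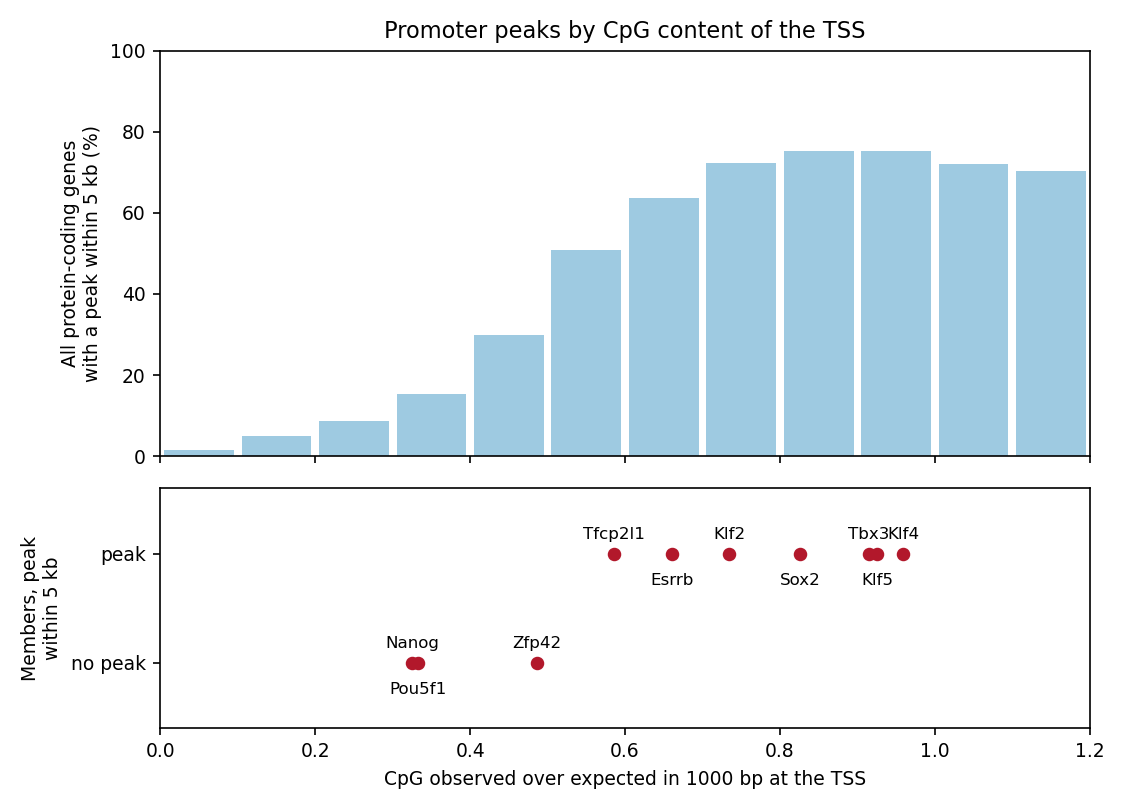
Upper panel, share of all protein-coding genes that have a promoter peak (within 5 kb), in percent, as bars by the ratio of observed to expected CpG in the 1000 bp at the TSS; lower panel, the ratio of each of the 10 genes, as points in rows by whether it has such a peak. Nanog, Pou5f1 and Zfp42, without a peak, lie at 0.486 and below, and the other genes at 0.586 and above.

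The Zeb1 motif was searched as CNCACCTG, CNTACCTG, TNCACCTG and TNTACCTG on both strands. Of the 18 peaks, 15 held at least 1 match over their whole length, against 76.8% of all peaks. The peaks without a match were the Sox2 peak 13670 bp downstream, the Esrrb peak in exon 7 and the Zfp42 peak, so that both high and low enrichment occurred without the letters. In the 1000 bp at the peak centre, 12 of 18 had a match, or 66.7%, against 55.4% of all peaks. The core CACCTG, which CNCACCTG and TNCACCTG contain, was found there in 11 of 18, or 61.1%, against 63.1% of all peaks. In the 200 bp at the centre 3 had one. They are shown with the match in capitals and 16 bases on either side, read on the strand of the match in GRCm38.
Klf2, chr8:72319798-72319837, minus strand: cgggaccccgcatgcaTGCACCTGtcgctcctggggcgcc
Klf4, chr4:55480456-55480495, minus strand: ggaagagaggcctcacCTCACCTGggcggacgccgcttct
Esrrb, chr12:86470330-86470369, minus strand: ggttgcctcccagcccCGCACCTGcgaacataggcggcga
The Klf2 match lies 17 bp from the centre of the promoter peak, and the Esrrb match 99 bp from the centre of the exon 2 peak. The Klf4 match lies at the centre of the peak 52000 bp downstream. Over all peaks, 16.7% had a match in the 200 bp. The Klf2 promoter peak held 5 matches over its length, the Klf4 promoter peak 6 and the Tfcp2l1 promoter peak 4. The Sox2 promoter peak held 2, at 706 and 1128 bp upstream of the TSS, and none in the 1000 bp at its centre.

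The motif was also present where no promoter peak was found. In the 1000 bp at the TSS, Nanog held 1 match and Pou5f1 2, while Sox2, Klf2, Esrrb and Tbx3, which have promoter peaks, held 0. Tfcp2l1 held 4, and 5 of the 10 genes held at least 1, against 52.3% of protein-coding genes. In the 300-base promoters, a match was found for Nanog and Tfcp2l1 among the 8 matched genes, and in 16.9% of all promoters. The core was found in 3 of the 8, with Zfp42 added, and in 20.2% of all promoters. At the TSS the motif was thus present in 3 of the 7 genes with a promoter peak and in 2 of the 3 without. That window of 1000 bp is shorter than each of these promoter peaks. Over their whole length all 7 promoter peaks held a match, as did 76.8% of all peaks. Those of Sox2 and Tbx3 held 2 each, Klf5 and Esrrb 3 each, Tfcp2l1 4, Klf2 5 and Klf4 6.

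Motifs of the factors themselves were counted in the 1000 bp at the peak centre, on both strands. The Klf letters GGGNGTG were found in 15 of 18 peaks, or 83.3%, against 65.5% of all peaks. The octamer ATGCAAAT was found in 1, the Zfp42 peak, and in 3.76% of all peaks. The Sox letters CATTGTT were found in 1, the Sox2 promoter peak, and in 7.0% of all peaks. The Esrrb letters TCAAGGTCA were found in 0 of 18 and in 1.53% of all peaks. The Stat letters TTCNNNGAA were found in 4 of 18, or 22.2%, against 22.4%. Any E-box, CANNTG, was present in 18 of 18 and in 97.3% of all peaks, and the core is 1 form of it. In the 300-base promoters the octamer was present for Zfp42 alone among the 8 genes and in 1.74% of all promoters.

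Among 24 further genes of the pluripotency network, 13 had a peak within 5 kb, or 54.2%, near the 45.1% of all protein-coding genes, with a median best enrichment of 8.46. High values belonged to Foxd3, a forkhead factor of the epiblast, with 16.7, and Lin28a, an RNA-binding protein that blocks let-7, with 11.3. No peak within 5 kb was found for Prdm14, Nr0b1, Dppa2, Dppa3, Dppa4, Dppa5a, Tcl1, Tdgf1, L1td1, Gdf3 and Fbxo15. The CpG ratio at the TSS had a median of 0.773 in the genes with a peak and 0.445 in those without, the same order as among the 10 factors. The order did not hold in every list, since in tissue-restricted genes of other cell types, of which 2 have a peak, it was reversed, nor did it hold gene by gene, since Lin28a had a peak at a ratio of 0.401 and Fbxo15 had none at 0.796.

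**Figure D4:**
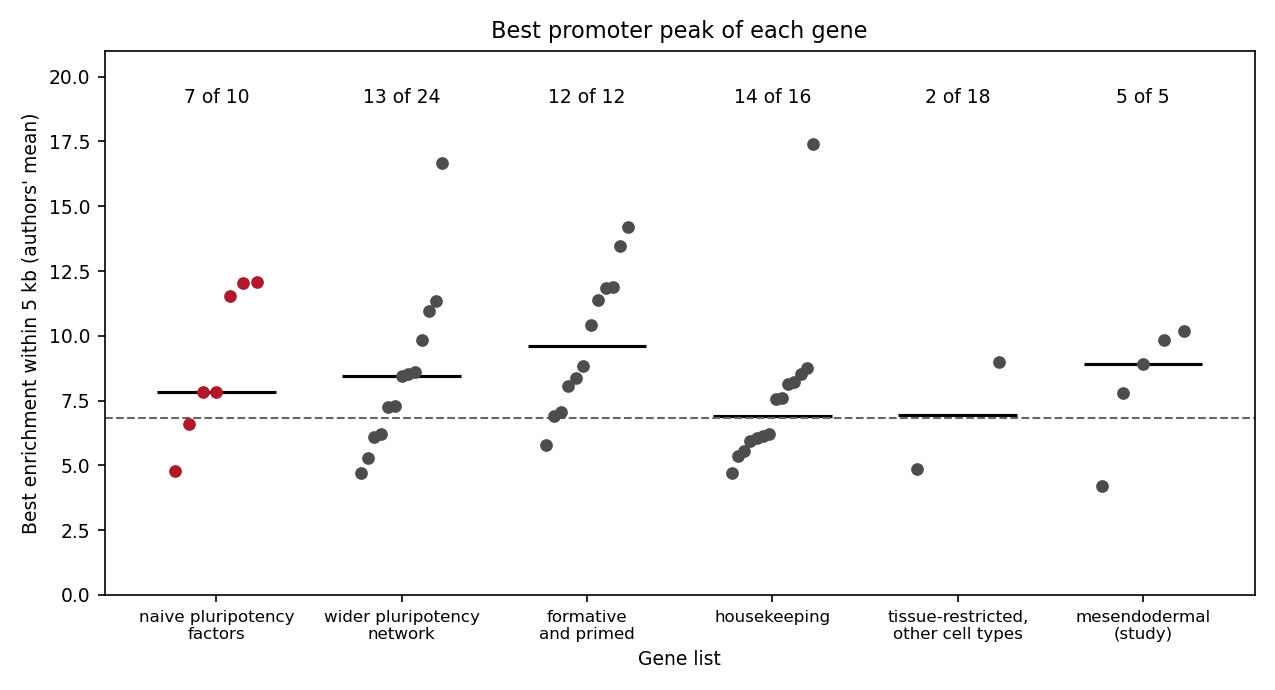
Highest enrichment over input (authors' mean) of a peak within 5 kb of the TSS, 1 point per gene, for the naive pluripotency factors in red and for other gene lists in grey; black lines are medians, the dashed line is the median of all protein-coding genes with such a peak, 6.84, and the numbers above give how many genes of each list have a peak. The naive factors have 7 of 10 with a median of 7.84, and the formative and primed genes 12 of 12 with 9.62. The mesendodermal genes were taken by the study from genes with such a peak.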

How the data were processed

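Zeb1 ChIP was compared with input in mESC in GS. Per the submitters' processing notes, FastQC 0.11.2, STAR 2.4.2a, Picard 1.136 and HOMER 4.7 were used on mm10. The authors called broad peaks per ChIP library over the input and kept those present in more than 1 library. By the study's methods, reads recounted on them were normalized to the same depth and averaged. The deposited read columns are a signal, the mean treatment or input reads per peak. The deposited enrichment is a ratio of treatment over input, which the authors normalized for mapped reads and averaged. The lowest values in the list were 20 treatment reads and an enrichment of 2. Every library was cut to 1 common number of reads before mapping, and mapped depth was not analysed here. Multipliers up to 40 were tried on the mean reads, and a product was whole when the whole number, divided again, gave the same 6 digits.

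Peaks were matched to members by gene symbol and to the 21000 protein-coding genes by Entrez ID, with curated RefSeq transcripts of GRCm38. Of 17165 peaks whose transcript was found there, 16213 had a distance within 100 bp of the recomputed one, and all 18 member peaks within 20 bp. Positive distances were downstream for 13855 peaks and upstream for 16, in contrast to the legend. No peak ended beyond its chromosome. Python 3.11.15, NumPy 2.4.6, pandas 2.3.3, pysam 0.24.0 and matplotlib 3.10.9 were used, and the searches were tested on simulated data.

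The members and lists were chosen with earlier results of these data known. The genes named are the 10 members, the genes given other peaks within 100 kb of a member's TSS, and from each list the 3 genes with the highest enrichment within 5 kb and the genes with none, some of which are not reported here. Genes that hold a member's peak, and the CpG ratio, were chosen after the values were seen. Sequences were shown only outside annotated UTRs. Alternatives were other distances, windows, assignments, enrichment limits and motif searches.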

Additional observations from a re-analysis of the deposited data

How the results depend on the processing

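The 17 alternatives left 13 values within 1.5 times the count reported, or equal to the median reported. The other 4 moved. With an enrichment of at least 10, 4 genes had an assigned peak in place of 9. With treatment reads over input reads plus 1 in place of the authors' enrichment, the median of the best promoter peaks was 3.83 in place of 7.84. The authors' value is scaled for mapped reads, and by the study's methods the recounted reads were normalized to the same depth. The sources used here do not give the size of either scaling. The quotient also adds 1 to the input reads and divides means, so more than 1 choice differs. In the 200 bp at the peak centre 3 peaks held the Zeb1 motif in place of 15, since the window is shorter. Within 200 kb of the TSSs there were 62 peaks in place of 32.

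Peaks over the gene with 5 kb on either side were found for 9 genes, as by assignment, but not for the same genes: Pou5f1 was added through the Tcf19 peak and Nanog was lost. Within 10 kb of the TSS 8 genes had an assigned peak, with Zfp42 added, and with an enrichment of at least 5 within 5 kb 6 had, without Klf5. The Tcf19 peak, 7718 bp from the nearest curated Pou5f1 TSS, is not counted there. No paired analysis was possible because the list holds no value per library. For the same reason no library could be left out, and a value of few reads, as at Zfp42 or in exon 7 of Esrrb, has no measured error.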

Other observations

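Genes of the formative and primed states, which come up as naive cells advance, had a peak within 5 kb in 12 of 12 cases, where 45.1% of all protein-coding genes had one, with a median best enrichment of 9.62. The highest were Sox3, an HMG-box factor, with 14.2, Fgf5, a growth factor of the primed epiblast, with 13.5, and Dnmt3b, a DNA methyltransferase, with 11.9. This list was chosen with earlier results of these data known. Its median CpG ratio was 0.833, and 74.4% of protein-coding genes with a ratio of 0.75 and above had such a peak. The 5 mesendodermal genes that the study chose had 5 of 5, with a median of 8.91, and the highest values were 10.2 at Tbx4, 9.84 at Dll1 and 8.91 at Wnt7b. The study took them from the genes with a Zeb1 peak near the TSS, so that their count was set by the choice.

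Against the same 45.1%, housekeeping genes had a peak in 14 of 16 cases, with a median of 6.89. High values belonged to Eef1a1, an elongation factor, with 17.4, and Ywhaz with 8.76, and Pgk1 and B2m had none. Tissue-restricted genes of other cell types had a peak in 2 of 18, below that share, Apoa1 with 9 and Ckm with 4.85. Genes of this list without a peak within 5 kb included Alb, Ins2, Gcg, Myh6, Myh7, Hba-a1, Cd3e, Gfap, Krt5, Krt14, Umod, Nphs1, Tnnt3 and Pmch. The median CpG ratio at the TSS was 0.833 in the formative and primed genes, 0.782 in the housekeeping genes and 0.246 in the tissue-restricted genes, against 0.697 in the naive factors and 0.615 in all protein-coding genes. Housekeeping genes with a peak had a median ratio of 0.801 and those without 0.636. In the tissue-restricted genes the order was reversed, with 0.159 in the 2 with a peak and 0.267 in the 16 without, and both of the 2 lay within the range of the 16.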
